A study of Mus musculus with 16 samples.

Results

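P-selectin, its ligand PSGL-1 and 8 enzymes that build the glycan and sulfate groups P-selectin binds were followed in RNA from mouse bone marrow hematopoietic stem cells (HSCs). The 10 genes are Selp, Selplg, Fut4, Fut7, Gcnt1, St3gal4, St3gal6, B4galt1, C1galt1 and Tpst2. They were taken by gene symbol from a table of 25239 genes, and all 10 were among the 14124 genes with enough reads to test. The study used bulk RNA-seq to compare HSCs lacking Selp (KO) with HSCs carrying it (WT), and cells given PSGL-1 with cells given vehicle. It used mice of 4 to 6 months. The labels name the knockout only as SelpKO, with no allele given in the sources used here.

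Cells were collected fresh from both genotypes, with 2 KO and 3 WT libraries. Cells cultured with vehicle gave 3 KO and 3 WT libraries. Cells cultured for 24 hours with 125 ng/mL PSGL-1 gave 3 KO and 2 WT libraries. Per the labels' protocols, HSCs were kept in StemSpan with fetal calf serum, stem cell factor, IL-11 and Flt-3 ligand. The sources used here do not give the time in vehicle, the sorting gate or whether replicates came from separate mice. The p-values therefore measure the spread between these libraries, which may be technical.

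P-selectin is an adhesion receptor that platelets and endothelial cells store in granules and move to their surface on activation. It slows leukocytes in the blood stream by binding PSGL-1, a mucin-like protein on blood cells and their progenitors. The binding needs a core 2 O-glycan capped with sialyl Lewis x, and sulfated tyrosines beside it. C1GALT1 builds core 1 of the glycan and GCNT1 adds the core 2 branch, which B4GALT1 extends with galactose. ST3GAL4 and ST3GAL6 add sialic acid, FUT7 and FUT4 add fucose, and TPST2 sulfates tyrosines.

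Library totals ran between 12590539 and 24690824 counts, and levels are given as CPM, a gene's count relative to its library's total after TMM scaling of the totals. WT PSGL-1 replicate 1 stood apart: 9035 genes were detected in it, against 11101 to 13480 in the other 15 libraries, and 36.6% of the tested genes were at 0. Fut4, Fut7 and St3gal6 were among the genes at 0 there, so edgeR fold changes that use this library are also given without it. Of 10 HSC markers, 9 or 10 were detected in each library. Their summed level was 2518.5 to 2645 CPM in fresh KO cells and 2040 to 2559 CPM in fresh WT cells. It was 1972 to 2091 CPM in KO and 1356 to 1848 CPM in WT cells in vehicle culture, and 1887 to 1974 CPM in KO and 1296 to 1540 CPM in WT cells with PSGL-1, so the genotypes were apart in both cultures. Of 5 erythroid markers Hba-a1 and Hbb-bs were at 0 in every library, and the list summed to 0 to 11.98 CPM in KO and 0 to 85.3 CPM in WT libraries. Of 5 T and NK cell markers Cd3e, Cd3d and Cd8a were at 0 in every library, and the list summed to 38.5 to 48.2 CPM in fresh KO and 64.5 to 99.7 CPM in fresh WT cells. The 4 B cell markers summed to at most 2.20 CPM.

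Promoter sequence is shown for the gene that was knocked out and for the enzyme gene that edgeR called between vehicle culture and fresh cells. RefSeq windows on GRCm38.p6 run 250 bases before to 50 bases after an annotated start, and 9 of the 10 genes had at least 1. The Selp window lies at chr1:164115014-164115313 on the plus strand. The first Tpst2 window lies at chr5:112276495-112276794 on the plus strand. Capitals mark the ETS core AGGAAG in Selp and the GC box GGGCGG in Tpst2, each searched on both strands.
Selp: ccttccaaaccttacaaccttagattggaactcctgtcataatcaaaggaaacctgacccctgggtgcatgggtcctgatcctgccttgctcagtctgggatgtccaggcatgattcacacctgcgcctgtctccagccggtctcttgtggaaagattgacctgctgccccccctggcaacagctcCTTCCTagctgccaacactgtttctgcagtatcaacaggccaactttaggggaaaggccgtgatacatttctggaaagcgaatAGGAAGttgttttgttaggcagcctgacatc
Tpst2: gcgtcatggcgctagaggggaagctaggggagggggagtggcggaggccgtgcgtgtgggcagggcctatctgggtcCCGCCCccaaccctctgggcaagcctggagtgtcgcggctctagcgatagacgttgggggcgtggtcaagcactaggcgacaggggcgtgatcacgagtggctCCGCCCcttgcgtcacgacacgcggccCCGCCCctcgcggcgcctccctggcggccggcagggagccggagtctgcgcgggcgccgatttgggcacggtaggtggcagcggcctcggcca
The Selp window held 2 ETS cores, 1 before the start on the reverse strand and 1 after it. That motif was in 35.4% of the 32851 mouse promoter windows of 300 bases. The Selp window had 4 CpG dinucleotides, against a median of 7 over all windows. The first Tpst2 window held 3 GC boxes, all before the start on the reverse strand, and 33 CpGs. Further Tpst2 windows, not shown, lie at chr5:112288493-112288792 and chr5:112296891-112297190. They had 3 CpGs each and no GC box, and the former held 1 ETS core. The GC box was in 35.7% of all windows. The TATA box TATAAA was in 13.6% of all windows. The GATA core AGATAA was in 11.2% and the RUNX core TGTGGT in 16.8% of them. These 3 motifs, also searched on both strands, had no match in the windows shown. The matches describe letters and not binding.

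Levels of different genes were compared per kilobase of merged exon length. The PSGL-1 gene Selplg stood first, with a median of 71.8 CPM per kb over 16 libraries, followed by the tyrosine sulfotransferase gene Tpst2 at 57.7 CPM per kb. These neighbours in the order were not apart, since Selplg was above Tpst2 in 10 of 16 libraries. Tpst2 was above the next gene, the sialyltransferase gene St3gal4, in 16 of 16 libraries. St3gal4, B4galt1, Fut7 and Gcnt1 followed at medians of 18.3, 13.6, 11.7 and 10.3 CPM per kb, with ranges that overlapped. Selp, C1galt1, St3gal6 and Fut4 were lowest at medians of 3.27, 2.698, 1.99 and 0.90 CPM per kb. The median of Selp pools both genotypes; its median was 1.16 CPM per kb in KO libraries and 20.1 CPM per kb in WT libraries.

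Selp, at chr1:164115264-164150026, fell in KO cells. Fresh KO cells had 0 and 2.20 CPM, against 16.3, 63.2 and 114 CPM in fresh WT cells. In vehicle culture KO cells had 5.52, 12.5 and 4.73 CPM, against 60.1, 26.8 and 147 CPM in WT cells. With PSGL-1, KO cells had 5.47, 0 and 10.5 CPM, against 142 and 188 CPM in WT cells. Every KO library lay below every WT library, as for 6 of 14124 tested genes (0.0425%). Selp averaged 5.12 ± 4.56 CPM in KO libraries and 94.7 ± 62.1 CPM in WT libraries (SD, n = 8 each).

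The mean difference in log2(CPM + 1) within conditions was -4.36 (n = 8 KO and 8 WT libraries, two-sided exact permutation test within conditions, p = 0.0005, the smallest p that 2000 arrangements can give). Leaving out each library in turn gave -4.02 to -4.64. In the edgeR quasi-likelihood fit across all genes, the log2 fold change averaged over the 3 conditions was -4.72 (SE 0.94), with a Benjamini-Hochberg adjusted p of 0.178. Without WT PSGL-1 replicate 1 it was -4.78, with an edgeR adjusted p of 0.110. DESeq2 gave -4.73 with an adjusted p of 8.05e-07, so the call across all genes depended on the tool. Without WT PSGL-1 replicate 2 the edgeR adjusted p was 0.00202.

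The KO libraries were not empty of Selp reads. They held 670 Selp counts in all, against 12083 in WT libraries, or 5.05% of the WT CPM. The share was 1.76% in fresh cells, 9.43% in vehicle culture and 3.32% with PSGL-1. Within WT cells the spread was wide as well, from 16.3 to 188 CPM. Megakaryocytes and platelets also express Selp, and 9 of their markers were summed. The sum was 1105 to 1390 CPM in KO and 1058 to 1655 CPM in WT cells when fresh. In vehicle culture it was 1017 to 1466.5 CPM in KO and 866 to 1589 CPM in WT cells. With PSGL-1 it was 899.8 to 1705 CPM in KO and 1294 to 2178 CPM in WT cells. Among WT libraries the highest sum was in PSGL-1 replicate 2, which also had the highest Selp level. The lowest sum was in WT vehicle replicate 1, which had 60.1 CPM of Selp. Of those markers Gp6 was at 0 in every library, and the part of such cells in the Selp levels was not tested. In bulk RNA, fewer cells expressing a gene and less RNA per cell cannot be told apart. Endothelial cells express it too, and 2 to 6 of 8 endothelial markers were detected in each library. Their summed level was 118 to 159.5 CPM in KO and 39.8 to 117 CPM in WT cells when fresh, 63.4 to 100.3 CPM in KO and 104 to 126 CPM in WT cells in vehicle culture, and 68.1 to 95.8 CPM in KO and 53.1 to 100.3 CPM in WT cells with PSGL-1. Of these markers Sele was at 0 in every library and Cdh5 was detected in 2 of 16, at most at 1.09 CPM. The part of endothelial cells, and of the difference in HSC markers between genotypes in culture, in the Selp levels was not tested.

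**Figure D1:**
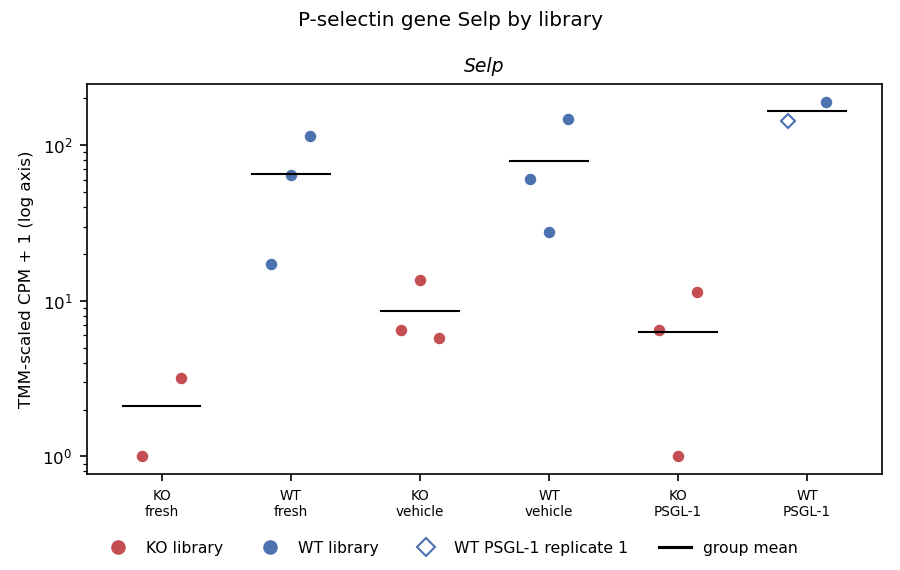
Selp by group, as TMM-scaled CPM + 1 on a log axis, with KO libraries in red, WT libraries in blue and a line at each group mean; the open diamond is WT PSGL-1 replicate 1. All 8 KO libraries lie at or below 12.5 CPM of Selp and all 8 WT libraries at or above 16.3 CPM.

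The other 9 genes did not pass the test between KO and WT cells. In edgeR none of the 10 genes was called in fresh, vehicle or PSGL-1 cells, where 0.00708% of all tested genes were called in each, nor in the mean of the 3 conditions, where 0.0354% were. At an unadjusted p under 0.05, 1 of the 10 passed in each of these 4 comparisons, and it was Selp every time, against 2.84%, 2.83% and 5.81% of all tested genes in fresh, vehicle and PSGL-1 cells and 6.84% in the mean. DESeq2 called 1 gene, Selp, in fresh cells, in PSGL-1 cells and in the mean, and limma with quality weights called 0. Groups did not overlap for 3 of 10 genes in fresh cells, for 2 in vehicle culture and for 1 with PSGL-1, against 19%, 9.34% and 17.8% of all tested genes. Beside Selp these were St3gal4, higher in fresh KO cells, C1galt1, lower in fresh KO cells, and St3gal6, lower in KO vehicle cells. Without WT PSGL-1 replicate 1, edgeR also called 0 of the 10 in all 4 comparisons. Without WT PSGL-1 replicate 2, which leaves only the library with few genes detected in that group, it called 5 with PSGL-1 (Selp, Fut7, Gcnt1, St3gal4 and St3gal6) and the same 5 in the mean, among 2979 and 2272 of all genes.

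Selplg, at chr5:113817798-113832528, had the lowest coefficient of variation of the 10 over 16 libraries, at 24.3%. That value includes differences between groups. Within both fresh groups, both vehicle groups and WT PSGL-1 cells the coefficient was lower for Tpst2 than for Selplg. In KO PSGL-1 cells it was higher for Tpst2, at 39.2% against 25.0%. Fresh KO cells had 405 and 252 CPM of Selplg, against 231, 218 and 305 CPM in fresh WT cells. In vehicle culture KO cells had 329, 440 and 249 CPM, against 397, 373 and 308 CPM in WT cells. With PSGL-1, KO cells had 296, 392 and 239 CPM, against 402 and 218 CPM in WT cells. KO and WT libraries overlapped in all 3 conditions. The log2 fold change of KO over WT was 0.10 (SE 0.18, edgeR, adjusted p = 1.00), and 0.27 without WT PSGL-1 replicate 1. Vehicle over fresh was 0.28 (SE 0.21) over both genotypes, 0.05 (SE 0.32) in KO cells and 0.52 (SE 0.29) in WT cells. PSGL-1 over vehicle was -0.17 (SE 0.21), or -0.43 without WT PSGL-1 replicate 1. No comparison of Selplg passed the edgeR test, the one with its own protein product added to the culture included.

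Tpst2, at chr5:112276682-112315356, fell in vehicle culture relative to fresh cells. In vehicle culture KO cells had 164, 141 and 144 CPM, against 292 and 213 CPM in fresh KO cells. WT cells had 169, 159 and 150 CPM in vehicle culture, against 225, 278 and 266 CPM fresh. Every vehicle library lay below every fresh library, as for 4.91% of all tested genes. Tpst2 averaged 154 ± 11.1 CPM in vehicle culture (SD, n = 6) and 255 ± 33.9 CPM in fresh cells (SD, n = 5). The log2 fold change, averaged over genotypes, was -0.72 (SE 0.18, edgeR, adjusted p = 0.0284). It was the only one of the 10 genes called in this comparison, in which 6.48% of all tested genes were called and 2.3% were called lower. At an unadjusted edgeR p under 0.05, Tpst2 was again the only 1 of the 10 to pass, against 20.0% of all tested genes.

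The fall of Tpst2 was similar in size in both genotypes, at -0.76 (SE 0.27) in KO cells and -0.69 (SE 0.25) in WT cells. Neither passed alone (edgeR adjusted p = 0.233 in KO cells and 0.241 in WT cells; 1.77% and 1.64% of all tested genes were called). The difference between the genotypes was -0.07 (SE 0.37, edgeR, adjusted p = 1.00). DESeq2 and limma also called Tpst2, with adjusted p of 0.00179 and 0.00543. The edgeR call sat near the threshold and was lost when any of 8 libraries was left out. The edgeR adjusted p became 0.132 when KO fresh replicate 1 was dropped. Dropping KO vehicle replicates 1, 2 or 3 gave 0.0515, 0.0699 or 0.0683. Dropping replicates 2 or 3 of fresh WT cells gave 0.0745 or 0.0624, and dropping replicates 2 or 3 of WT vehicle cells gave 0.0524 or 0.0577. The summed levels of 3 marker lists were lower in vehicle culture as well. For granulocyte and monocyte markers the mean of the sum was 226 CPM in KO vehicle cells and 232 CPM in WT vehicle cells. In fresh cells it was 1258 CPM for KO and 737 CPM for WT. Of those 9 markers Ly6g was at 0 in every library. T and NK cell markers summed to 10.4 to 19.1 CPM in KO and 15.8 to 21.8 CPM in WT vehicle cells, below the fresh sums given above. The HSC marker sums given above were lower in vehicle culture than in fresh cells within each genotype. Averaged over genotypes, 9 of the 10 HSC markers had a fold change below 0. In edgeR 2 of the 10 were called lower and 1 higher, against 2.3% and 4.18% of all tested genes. The part of these lists in the Tpst2 difference was not tested. With PSGL-1, Tpst2 was at 101, 108 and 196 CPM in KO cells and at 138 and 111 CPM in WT cells. PSGL-1 over vehicle was -0.25 (SE 0.19), and -0.34 without WT PSGL-1 replicate 1, which did not pass the edgeR test.

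Of the enzymes that build, branch and extend the glycan core, C1galt1 ranged from 0 to 36.5 CPM, Gcnt1 from 8.62 to 95.2 CPM and B4galt1 from 6.88 to 98.8 CPM. Fresh KO cells had 0 and 10.7 CPM of C1galt1, against 20.8, 11.3 and 17.7 CPM in fresh WT cells, and the lowest cultured library was WT PSGL-1 replicate 1 at 0.395 CPM. The lowest Gcnt1 level was in WT PSGL-1 replicate 1, and the lowest B4galt1 level in WT vehicle replicate 1. None of the 3 passed the edgeR test in any comparison. KO over WT, averaged over conditions, was -0.50 (SE 0.89) for C1galt1, 0.37 (SE 0.39) for Gcnt1 and 0.03 (SE 0.43) for B4galt1. These were -0.82, 0.09 and -0.21 without WT PSGL-1 replicate 1, so the sign for B4galt1 changed when that library was left out. In vehicle culture Gcnt1 had 66.1, 67.0 and 59.1 CPM in KO cells, against 28.0, 94.7 and 45.7 CPM in WT cells, so the KO libraries lay inside the WT range. Vehicle over fresh was 0.76 (SE 1.09) for C1galt1, 0.41 (SE 0.47) for Gcnt1 and -0.38 (SE 0.51) for B4galt1.

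St3gal4, at chr9:35046576-35116864, had after Selp the smallest unadjusted p for KO over WT in the mean of the 3 conditions. Fresh KO cells had 52.5 and 78.4 CPM, against 35.3, 32.6 and 46.5 CPM in fresh WT cells. In vehicle culture KO cells had 77.3, 40.6 and 80.9 CPM, against 54.4, 68.8 and 77.3 CPM in WT cells. With PSGL-1, KO cells had 74.6, 38.2 and 98.1 CPM, against 11.9 and 52.7 CPM in WT cells. The groups were apart in fresh cells and overlapped in both cultures. KO over WT, averaged over conditions, was 0.63 (SE 0.32, edgeR, adjusted p = 0.768), and 0.40 without WT PSGL-1 replicate 1. St3gal6, which ranged from 0 to 22.7 CPM, had 12.1, 4.28 and 4.44 CPM in KO vehicle cells, against 21.9, 12.5 and 12.7 CPM in WT vehicle cells. In fresh cells the order was the other way, with 13.1 and 21.8 CPM in KO cells against 4.94, 13.2 and 9.83 CPM in WT cells, and the groups overlapped. Averaged over conditions it had -0.19 (SE 0.88) for KO over WT, and -0.52 without that library.

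Fut7 was the more abundant of the 2 fucosyltransferase genes, between 0 and 88.9 CPM, with its 0 in WT PSGL-1 replicate 1. Fut4 lay between 0 and 12.98 CPM and was at 0 in 5 of 16 libraries. Fresh KO cells had 43.4 and 32.6 CPM of Fut7, against 10.4, 41.4 and 88.9 CPM in fresh WT cells. In vehicle culture Fut7 lay between 17.7 and 31.2 CPM in KO cells and between 5.28 and 31.8 CPM in WT cells. Fut4 had 0.715, 0 and 1.89 CPM in KO vehicle cells and 0, 0 and 7.76 CPM in WT vehicle cells. It had 0 and 9.95 CPM in KO fresh cells and 12.98, 5.45 and 8.25 CPM in WT fresh cells. Both genes thus overlapped between genotypes in both conditions. Vehicle over fresh was -0.97 (SE 0.93) for Fut7 and -2.14 (SE 1.91) for Fut4, and neither passed the edgeR test. KO over WT was 0.43 (SE 0.78) for Fut7 and -0.64 (SE 1.57) for Fut4, and without WT PSGL-1 replicate 1 it was 0.09 for Fut7 and -0.97 for Fut4. The SE of Fut4 was the largest of the 10 genes in each averaged comparison.

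**Figure D2:**
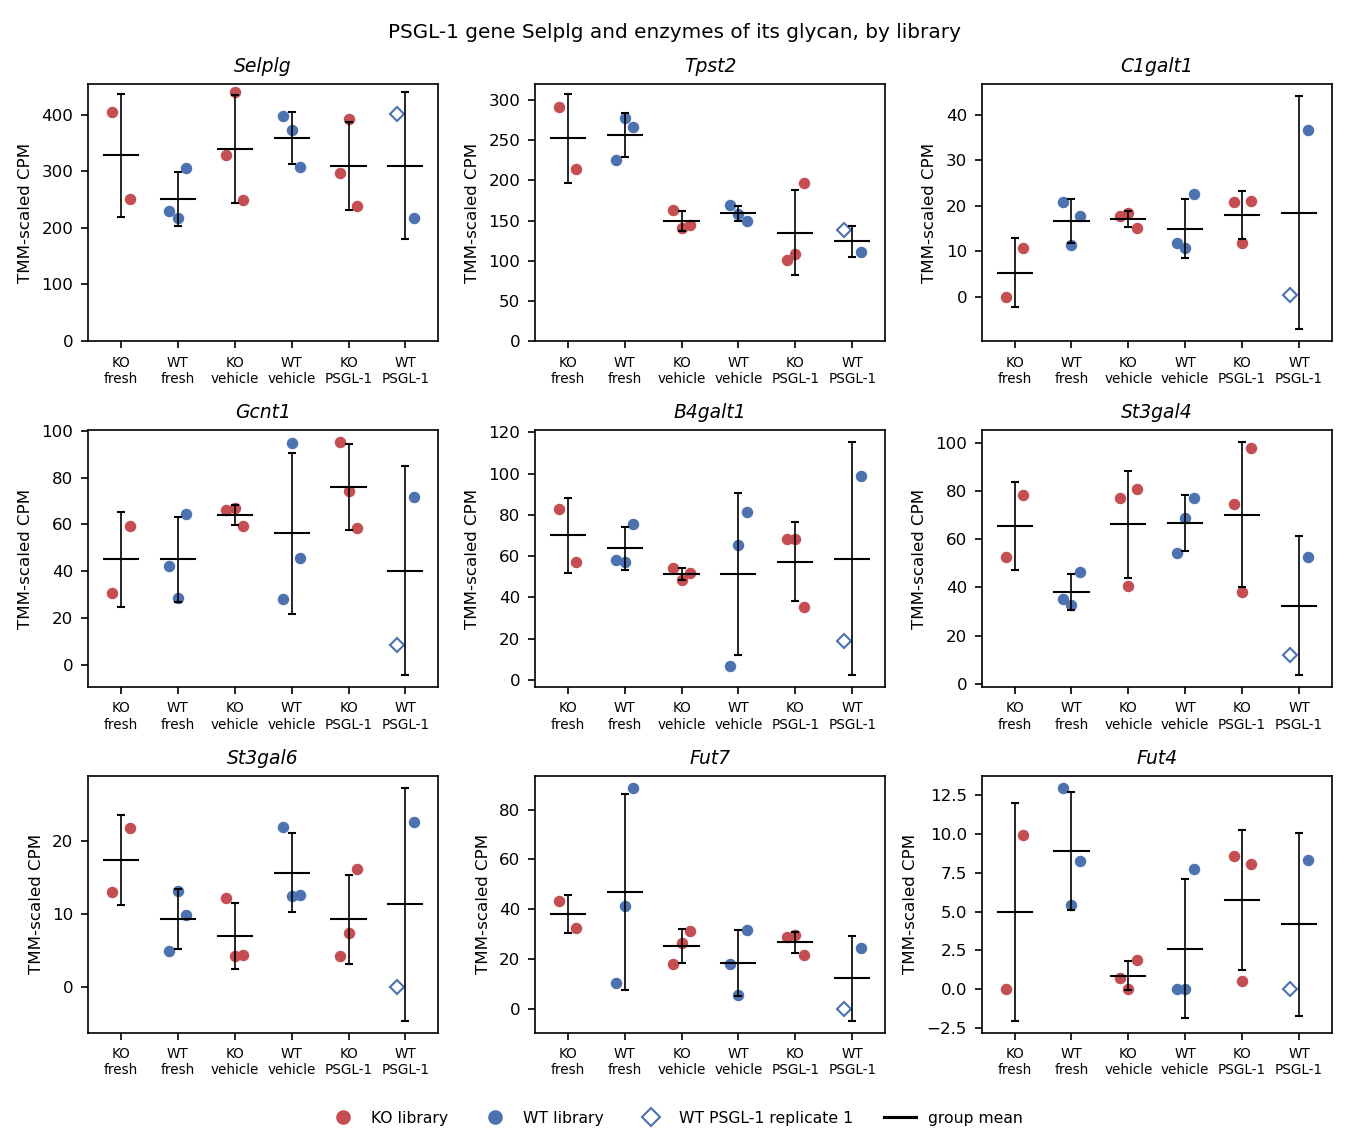
TMM-scaled CPM of Selplg and the 8 enzyme genes by group, with KO libraries in red, WT libraries in blue, lines at group means and bars of 1 SD; the open diamond is WT PSGL-1 replicate 1. Tpst2 lies between 141 and 169 CPM in vehicle libraries and between 213 and 292 CPM in fresh libraries, while the other panels overlap between most groups.

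PSGL-1 was compared with vehicle within each genotype and over both. None of the 10 genes was called by edgeR in KO cells, in WT cells or over both, and 0% of all tested genes were called in each. At an unadjusted p under 0.05, 0 of the 10 passed, against 198, 803 and 582 of 14124 tested genes. DESeq2 and limma called 0 of the 10 as well, while DESeq2 called 41 of all genes in KO cells, 229 in WT cells and 121 over both. Selp was 1.09 (SE 1.37) on the log2 scale in WT cells and -0.51 (SE 1.26) in KO cells, with WT levels of 142 and 188 CPM with PSGL-1 against 60.1, 26.8 and 147 CPM in vehicle. Without WT PSGL-1 replicate 1 the WT value was 1.26. For 3 enzyme genes the sign in WT cells changed when that library was left out. PSGL-1 over vehicle was -0.60 with it and 0.39 without it for Fut7, -0.48 and 0.35 for Gcnt1, and -0.47 and 0.52 for St3gal6. With WT PSGL-1 replicate 2 left out instead, edgeR called 4 of the 10 in WT cells and 3 over both genotypes, among 2955 and 2381 of all genes. The vehicle libraries also serve the comparison with fresh cells, so these 2 comparisons are not independent. The difference of the PSGL-1 effect between genotypes passed for none of the 10 genes in edgeR, DESeq2 or limma, and none had an unadjusted edgeR p under 0.05.

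**Figure D3:**
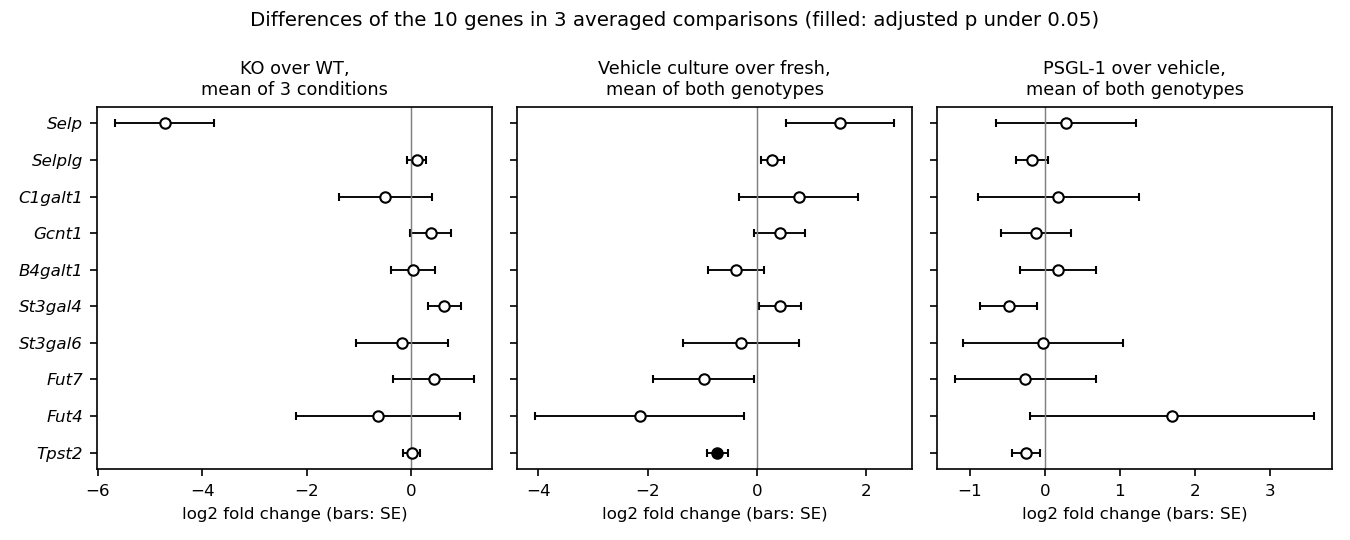
Log2 fold changes of the 10 genes with bars of 1 SE from the edgeR fit, for KO over WT, vehicle over fresh and PSGL-1 over vehicle; filled points have an adjusted p under 0.05. Selp lies at -4.72 for KO over WT, and Tpst2 at -0.72 for vehicle over fresh is the only filled point.

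A further 72 genes of the pathway, in 5 lists, were read beside the 10, and 61 had enough reads to test. Of these 61, 5 rose and 1 fell in vehicle culture relative to fresh cells (edgeR, 9.84%), against 6.48% of all tested genes. Of all tested genes, 4.18% were called higher and 2.3% lower. The median log2 fold change of the 61 was 0.13, against -0.07 over all genes. By list, 4 of 22 genes of O-glycan start, core and extension rose, 1 of 7 selectins and other ligands rose and 1 of 16 sialylation genes fell. In fucosylation 0 of 10 genes and in sulfation 0 of 6 genes passed in edgeR. At an unadjusted p under 0.05, 0 fucosylation genes and 1 sulfation gene passed, against 20.0% of all tested genes. DESeq2 called 6 of the 61 higher and 2 lower, with 0 in fucosylation and sulfation, against 950 higher and 830 lower of 14124 tested genes. Limma called 6 higher and 7 lower, with 0 in fucosylation and 1 in sulfation, against 878 higher and 1018 lower of 14124 tested genes.

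Galnt6 and Galnt1 encode enzymes that put the first sugar of an O-glycan on the protein. Galnt6 averaged 479 ± 51.9 CPM in vehicle culture and 213 ± 69.8 CPM in fresh cells (SD, n = 6 and 5), a log2 fold change of 1.24 (SE 0.22, edgeR, adjusted p = 0.00251). Galnt1 averaged 287 ± 53.2 CPM in vehicle culture and 183 ± 37.9 CPM in fresh cells, a log2 fold change of 0.63 (SE 0.16, edgeR, adjusted p = 0.0292). The Galnt1 call was lost without KO fresh replicate 1 (edgeR adjusted p = 0.128), without any 1 KO vehicle replicate (0.0554, 0.0718 and 0.0566 without replicates 1, 2 and 3) and without WT vehicle replicate 1 or 2 (0.0533 and 0.0675). It was also lost with no filter (0.0612) and with relative log expression size factors (0.0593).

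B4galt5 and B4galt2 encode galactosyltransferases of the B4galt1 family. B4galt5 averaged 59.8 ± 10.8 CPM in vehicle culture and 19.0 ± 5.23 CPM in fresh cells, a log2 fold change of 1.62 (SE 0.35, edgeR, adjusted p = 0.0106). B4galt2 had 7.73, 7.89 and 6.75 CPM in KO and 2.96, 0 and 5.61 CPM in WT vehicle libraries, and was at 0 in all 5 fresh libraries (edgeR adjusted p = 0.0140). B4galt5 lay between 46.9 and 78.9 CPM in vehicle libraries and between 12.3 and 24.3 CPM in fresh libraries, and B4galt2 was detected in 5 of 6 vehicle libraries. The B4galt2 call was lost without KO fresh replicate 1 or 2 (edgeR adjusted p = 0.0795 and 0.0540).

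Cd34 encodes a sialomucin of blood progenitors and endothelium. It averaged 812 ± 125 CPM in vehicle culture and 301 ± 60.8 CPM in fresh cells, a log2 fold change of 1.48 (SE 0.14, edgeR, adjusted p = 2.0e-05), and it passed in each genotype alone. Cmas, whose enzyme activates sialic acid for all sialyltransferases, averaged 134 ± 32.3 CPM in vehicle culture and 261 ± 78.1 CPM in fresh cells, a log2 fold change of -0.99 (SE 0.23, edgeR, adjusted p = 0.0156). The Cmas call was lost without KO fresh replicate 1 (edgeR adjusted p = 0.0659). The lower sums of granulocyte and monocyte, T and NK cell and HSC markers in vehicle culture stand beside all 6 of these differences, and their part in them was not tested. None of the 61 genes was called by edgeR between KO and WT or between PSGL-1 and vehicle. In the averaged comparisons 3 of them had an unadjusted p under 0.05 between KO and WT, and 2 between PSGL-1 and vehicle, against 6.84% and 4.12% of all tested genes. There DESeq2 and limma called 0 in both. In single conditions DESeq2 called B3gnt3, lower for KO over WT in vehicle culture (DESeq2, adjusted p = 0.0303). It also called B4galt5, lower for PSGL-1 over vehicle in WT cells (log2 fold change -1.45, DESeq2, adjusted p = 0.0352). Limma called 0 there, and both genes are named here after their values were seen. The B4galt5 call uses WT PSGL-1 replicate 1, and DESeq2 was not run without that library.

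**Figure D4:**
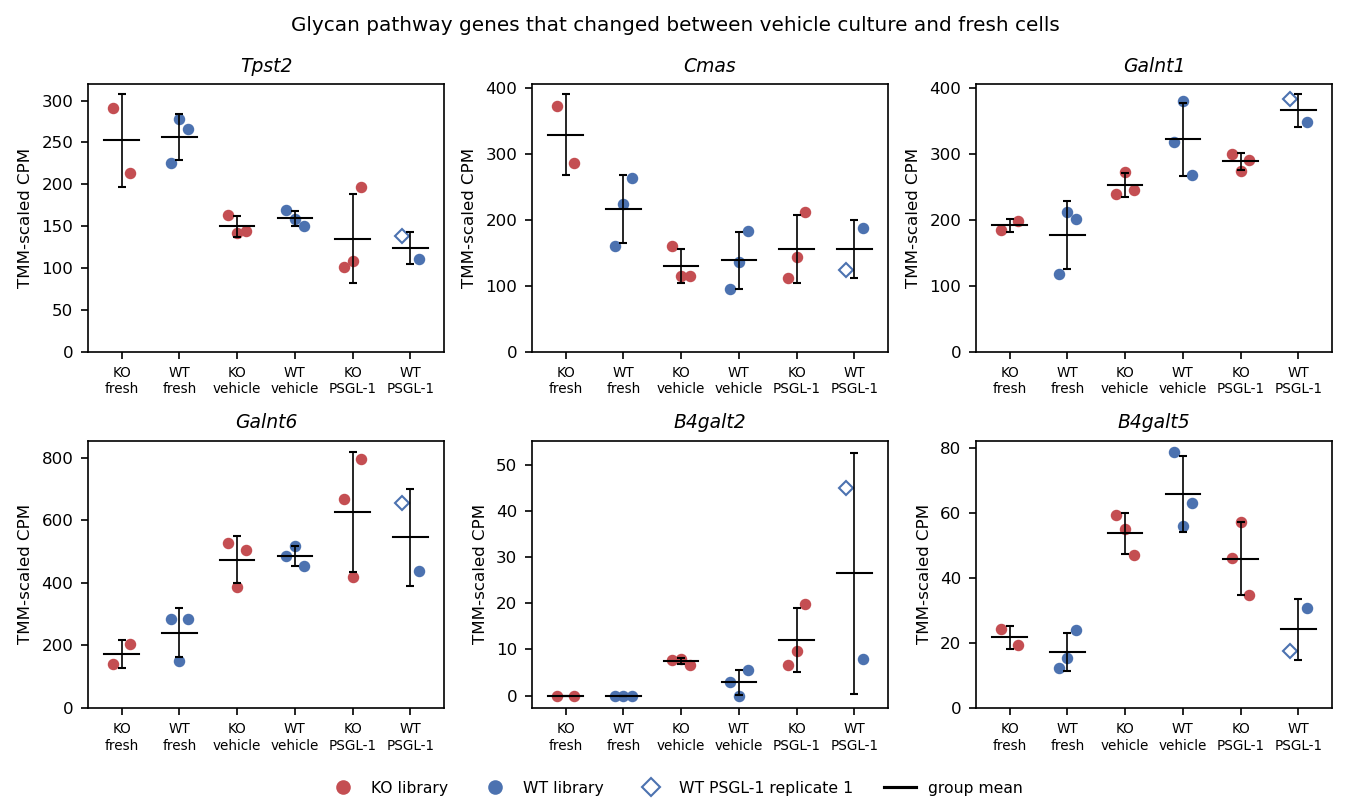
TMM-scaled CPM by group of Tpst2 and 5 further glycan genes that passed the test between vehicle culture and fresh cells, with KO libraries in red, WT libraries in blue, lines at group means and bars of 1 SD; the open diamond is WT PSGL-1 replicate 1. Galnt6, Galnt1, B4galt5 and B4galt2 were higher in vehicle libraries, and Tpst2 and Cmas were lower.

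The genes whose log2 CPM followed Selp most closely over the 8 WT libraries, among 10577 genes averaging 5 CPM or more, were Cdc23, Phtf1 and Mief1, with Pearson r of 0.951, 0.946 and 0.943. Without WT PSGL-1 replicate 1 these were 0.945, 0.951 and 0.945 over 7 libraries. For Selplg over all 16 libraries they were Jup, Wbp4 and Mfap1a, with r of 0.806, 0.780 and 0.774 among 10664 genes. They are the highest values of many, over libraries that share conditions, and are given as a description.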

How the data were processed

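Bulk RNA-seq of 16 libraries was analysed. The authors deposited raw read counts per gene symbol, 1 column per library, which were used as deposited. Per the labels' protocols, RNA came from a micro-scale column kit and cDNA from the SMART Ultra-Low Input kit. Per the submitters' processing notes, STAR 2.7.5c, featureCounts, MultiQC 1.10 and DESeq2 were used with build mm10. The sources used here give no annotation or strand setting, so reads of near-identical or overlapping genes may be shared. Counts are not molecules, and floors cover counting error only; 3 counts equal 0.123 to 0.230 CPM.

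Groups follow the labels. After edgeR's expression filter, 14124 genes entered 1 quasi-likelihood fit over all 6 groups (edgeR 4.0.16, TMM scaling, robust), with Benjamini-Hochberg adjustment over all tested genes and a threshold of 0.05. Alternatives were DESeq2 1.42.0, limma 3.58.1 with quality weights, no filter, a stricter filter, relative log expression size factors, a replicate block and leaving out each library. The fit was also run on counts simulated from 1 mean per gene with its own dispersions. Those counts held no sparse library, so that run cannot show how the fit handles WT PSGL-1 replicate 1. The common biological coefficient of variation in the fit was 0.977, so a gene not called is not thereby shown to be unchanged. Each SE of an edgeR fold change is the absolute log2 fold change over the square root of its F statistic. It is derived from the test and is not a separate estimate. Selp was also tested by exact permutation of log2(CPM + 1) within conditions. Exon lengths are from GENCODE M21 on GRCm38, and coordinates and promoters from RefSeq GRCm38.p6. The text names all 10 genes and Sele, at most 4 called genes per pathway list, and 3 genes per likeness. A gene of the pathway lists is not reported here. Members, lists and comparisons were chosen with earlier results of these data known.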

Additional observations from a re-analysis of the deposited data

How the results depend on the processing

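Counts of called genes in this paragraph are among the 10 genes. With DESeq2, 1 gene (Selp) was called in place of 0 for KO over WT in fresh cells, in PSGL-1 cells and in the mean of the 3 conditions. Leaving out each library gave 0 to 5 called genes for KO over WT with PSGL-1, 0 to 5 for the mean of the 3 conditions, 0 to 4 for PSGL-1 over vehicle in WT cells, 0 to 3 over both genotypes and 0 to 4 for the difference between genotypes. Every count above 0 in these 5 comparisons came from leaving out WT PSGL-1 replicate 2. That leaves the library with few detected genes alone in its group, assumed to vary like the others. St3gal6 changed sign there: KO over WT was -0.29 with PSGL-1 (-1.28 to 10.22 without each library in turn) and -0.19 in the mean (-0.52 to 3.32). For vehicle over fresh, averaged over genotypes, the range was 0 to 1, with 0 in 8 of the 16 fits that left out 1 library.

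Deviations of same-numbered libraries from their group means correlated between -0.07 and 0.08 over 36 pairs. For differently numbered libraries the range was -0.10 to 0.10 over 70 pairs. By sets of 6 library numbers, libraries of the same set correlated between -0.07 and 0.10. With so few libraries per group, these correlations cannot exclude a pairing of the libraries. A replicate block on the numbers of the titles changed no count of called genes. A block on sets of 6 library numbers gave 0 called genes in place of 1 for vehicle over fresh (Tpst2, -0.70, edgeR adjusted p = 0.0635). The cause was not tested. Over all genes, DESeq2 called 94, 111 and 245 genes for KO over WT in fresh, vehicle and PSGL-1 cells, 237 in the mean and 1780 for vehicle over fresh, where edgeR called 1, 1, 1, 5 and 915. Limma called 7, 3, 0, 5 and 1896. Selp kept its direction for KO over WT in all alternatives run. Levels under 3 counts a library, 0.123 to 0.230 CPM, lay under the counting floor at this depth. Genes and markers given as detected had any count above 0, so they include levels under that floor. Of the groups, 2 had 2 libraries.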
